A study of Mus musculus with 12 samples.

Results

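A pair of genes was followed across 8 mouse mammary tumors: Dmrta2, which was far above the pooled control RNA in every tumor, and Sec14l4, which was far below it in every tumor. Each was measured by 1 probe, so that 2 of 41174 gene probes and 2 of 20401 tested genes are described here. They were picked from these data for a large ratio that changed little from tumor to tumor. The size, direction and evenness of their ratios are therefore descriptions and were given no test. Over the 8 tumors Dmrta2 had the lowest spread among 125 genes whose average log2 ratio was 2 or more in size. That low rank follows at least in part from how the gene was picked. Sec14l4 was less uniform, since its spread ranked 12 of the same 125 genes and depended on how the background was corrected. The rank of Dmrta2 was not 1 in every setting.

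The tumors were labelled ShcA-null, and each was hybridised on a two-colour Agilent array together with RNA pooled from NIC tumors. NIC is a transgenic model in which an activated Neu (ErbB2) receptor and Cre recombinase are expressed together in the mammary epithelium. ShcA, the product of Shc1, is an adaptor that couples such receptors to Ras. The 8 tumors gave 12 arrays, since tumors 1 to 4 had a second array with the dyes swapped, and the pool was the other RNA on all of them. The labels used here give no age, strain, pool size or deleted part of Shc1. Shc1 RNA itself was not called different from the pool, with a mean log2 ratio of 0.12 ± 0.65 (SD, n = 8; limma adjusted p = 0.714).

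Dmrta2 encodes a transcription factor of the DM-domain family, zinc-binding DNA-binding proteins best known from sex determination. In the mouse embryo Dmrta2 acts in the dorsal forebrain, where it takes part in the development of the cerebral cortex. Sec14l4 encodes a SEC14-like protein with a CRAL-TRIO domain, a lipid-binding pocket also found in the vitamin E transfer protein Ttpa.

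Everything known of both genes here comes from the 2 probes whose first 30 of 60 bases are shown, in lower case, 5′ to 3′ as deposited. No capitals are used because no part of either sequence was singled out.
Dmrta2 probe A_51_P110081: aattagactattcgcacattgtacgtatcg
Sec14l4 probe A_51_P194853: attgggggttaaatgccaagaggcagtgcc
The Dmrta2 probe is assigned in the file to NM_172296 and lies on chromosome 4 at 109359862-109359921 of build mm7. The Sec14l4 probe is assigned to NM_146013 and lies on chromosome 11 at 3999935-3999994 of the same build. GC content over the 60 bases was 35% for Dmrta2 and 45% for Sec14l4. The 3 forward reading frames of the Dmrta2 probe each held 1 stop codon, and those of the Sec14l4 probe held 2, 1 and 0. The exon or untranslated region in which either probe lies was not analysed here.

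Dmrta2 was bright in the tumor channel and dim, though measurable, in the pool channel. Over the 12 arrays its signal ran between 4215 and 18413 scanner units in tumor RNA (median 4693), against 247 to 874 in pool RNA (median 324). The lowest tumor signal was above the highest pool signal, so the channels did not overlap. After subtraction of the local background, the 8 first arrays gave 8723, 4620, 4674, 6405, 4453, 18362, 7587 and 4172 for tumors 1 to 8, against 329, 271, 246, 206, 213, 728, 253 and 187 for the pool. Tumor 6 was the brightest on the first arrays in both channels, and its ratio lay within those of the other tumors. On the swapped arrays labelled tumors 1 to 4 the background-subtracted signals were 10155, 4418, 4505 and 4436 in tumor RNA, against 831, 395, 331 and 254 in pool RNA. Of these, the array labelled tumor 1 was the brightest in both channels.

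Sec14l4 showed the opposite arrangement, a steady pool signal and a low, more variable tumor signal. Over the 12 arrays its signal ran between 124 and 677 in tumor RNA (median 438), against 2194 to 2825 in pool RNA (median 2370). The channels did not overlap on this spot either. After background subtraction, tumors 1 to 8 gave on their first arrays 301, 395, 621, 389, 337, 390, 557 and 567.7 in tumor RNA, against 2133, 2570, 2474, 2343, 2241, 2155, 2271 and 2159 in pool RNA. The coefficient of variation was 26.8% in tumor RNA and 6.95% in pool RNA on these 8 arrays. For the Dmrta2 spot on the same arrays it was 64.3% and 58.1%, so the evenness of Dmrta2 lay in its ratio and not in its signals. Its background-subtracted pool signal was highest, at 831 and 728, on the swapped array labelled tumor 1 and the first array of tumor 6. There its tumor signal was highest too, at 10155 and 18362. Why the pool signal of Dmrta2 varied so much more than that of Sec14l4 was not tested. On the swapped arrays labelled tumors 1 to 4 the tumor RNA gave 68.8, 463, 118 and 464, against 2662, 2770, 2778 and 2148 in the pool. The swapped arrays labelled tumors 1 and 3 thus held the 2 lowest tumor signals of the set. Signal from the first of these was 124 over a local background of 55.5, so its ratio was the one most exposed to background correction. Both spots were nevertheless well above background in both channels on 12 of 12 arrays, and 0 were saturated or flagged as outliers.

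**Figure D1:**
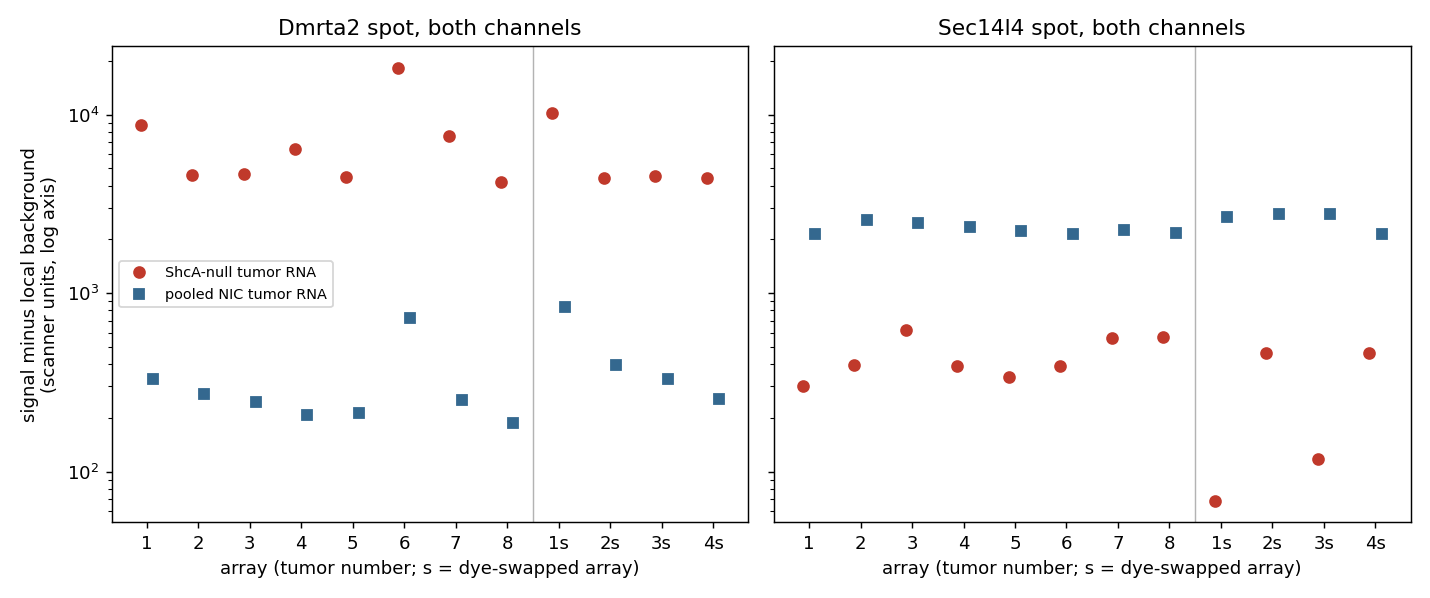
Background-subtracted signal of the Dmrta2 spot (left) and the Sec14l4 spot (right) on a log axis, for tumor RNA (red circles) and pool RNA (blue squares) on each of the 12 arrays, with the swapped arrays right of the grey line. The channels do not overlap for either gene, the pool signal of Sec14l4 is level, and its tumor signal is lowest on the swapped arrays labelled tumors 1 and 3.

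After loess normalization and averaging of the arrays of each tumor, the log2 ratio of Dmrta2 was 3.42, 3.02, 3.37, 3.33, 3.15, 3.42, 3.78 and 3.41 in tumors 1 to 8. Tumor 7 was highest and tumor 2 lowest, and the others lay between 3.15 and 3.42. The mean was 3.36 ± 0.22 (SD, n = 8), or 10.3-fold above the pool. In a bulk tumor, more cells of a type that expresses the gene and more RNA per cell cannot be told apart, nor can fewer cells and less RNA per cell for Sec14l4.

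Sec14l4 had log2 ratios of -3.98, -3.00, -3.26, -3.11, -3.44, -2.77, -2.67 and -2.50 in tumors 1 to 8. Tumor 1 was the lowest and tumor 8 the highest, 1.48 apart, where the corresponding distance for Dmrta2 was 0.76. The mean was -3.09 ± 0.47 (SD, n = 8), or 8.53-fold below the pool. Leaving out tumor 1 lowered the SD of Sec14l4 to 0.33.

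The separate arrays showed where that spread lay. Dmrta2 had log2 ratios of 3.50, 2.94, 3.33, 3.45, 3.15, 3.42, 3.78 and 3.41 on the first arrays, in tumor order. The swapped arrays labelled tumors 1 to 4 gave 3.33, 3.09, 3.41 and 3.20. After loess the swapped arrays lay within the range of the first arrays, and both arrays of a labelled tumor differed by 0.17 on average. That difference was 0.76 for the background-subtracted ratios without loess, 0.34 for the scanner software's ratio and 0.26 for the value table of the authors. Sec14l4 had -3.56, -3.37, -2.43, -3.50, -3.44, -2.77, -2.67 and -2.50 on the first arrays, and -4.40, -2.64, -4.08 and -2.71 on the swapped arrays. On the first arrays tumors 1, 2, 4 and 5 lay between -3.56 and -3.37 and tumors 3, 6, 7 and 8 between -2.77 and -2.43. Both arrays of a labelled tumor differed by 1.00 on average for Sec14l4, most for tumor 3, where the swapped array was 1.65 lower.

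The tumor numbers of 3 of the 4 swapped arrays went against the array-wide values. Across 20431 genes, the swapped array labelled tumor 1 correlated best with the first array of tumor 1 (Pearson r = 0.52). The one labelled tumor 2 had r = 0.17 with the first array of tumor 2 and 0.82 with that of tumor 3. The one labelled tumor 3 had 0.14 with its own number and 0.34 with tumor 4, and the one labelled tumor 4 had 0.26 with its own number and 0.67 with tumor 8. These correlations are across genes, which are not independent replicates, and the best match for the array labelled tumor 3 stood little above the next at 0.26. With the swapped arrays set beside their best match, the average difference between arrays was 0.16 for Dmrta2 and 0.46 for Sec14l4. The swapped array was the lower one in all 4 of these pairs for both genes. Swapped minus first was -0.17, -0.23, -0.04 and -0.21 for Dmrta2 and -0.85, -0.20, -0.58 and -0.21 for Sec14l4, in the order of the swapped arrays. A dye term, counted from the midpoint of the dye orientations and positive where first arrays were higher, was fitted with tumors as block. With best-matching tumors it was 0.08 for Dmrta2 and 0.23 for Sec14l4, and with labelled tumors 0.05 and 0.21. The medians over all genes were -0.0005 and -0.015. Slide cannot be told apart from dye orientation here, and the cause of these differences was not tested. Averaging the best-matching arrays gave 3.33 ± 0.25 for Dmrta2 and -3.15 ± 0.57 for Sec14l4 (SD, n = 8). The labelled numbers were kept for all other values. In the dye-term fits the correlation between arrays of a block was 0.94 with best-matching tumors and 0.04 with labelled ones. The matches had been picked by correlation. If they hold, the averages for labelled tumors 2, 3 and 4 join arrays of different tumors, and the 8 replicates are not independent.

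**Figure D2:**
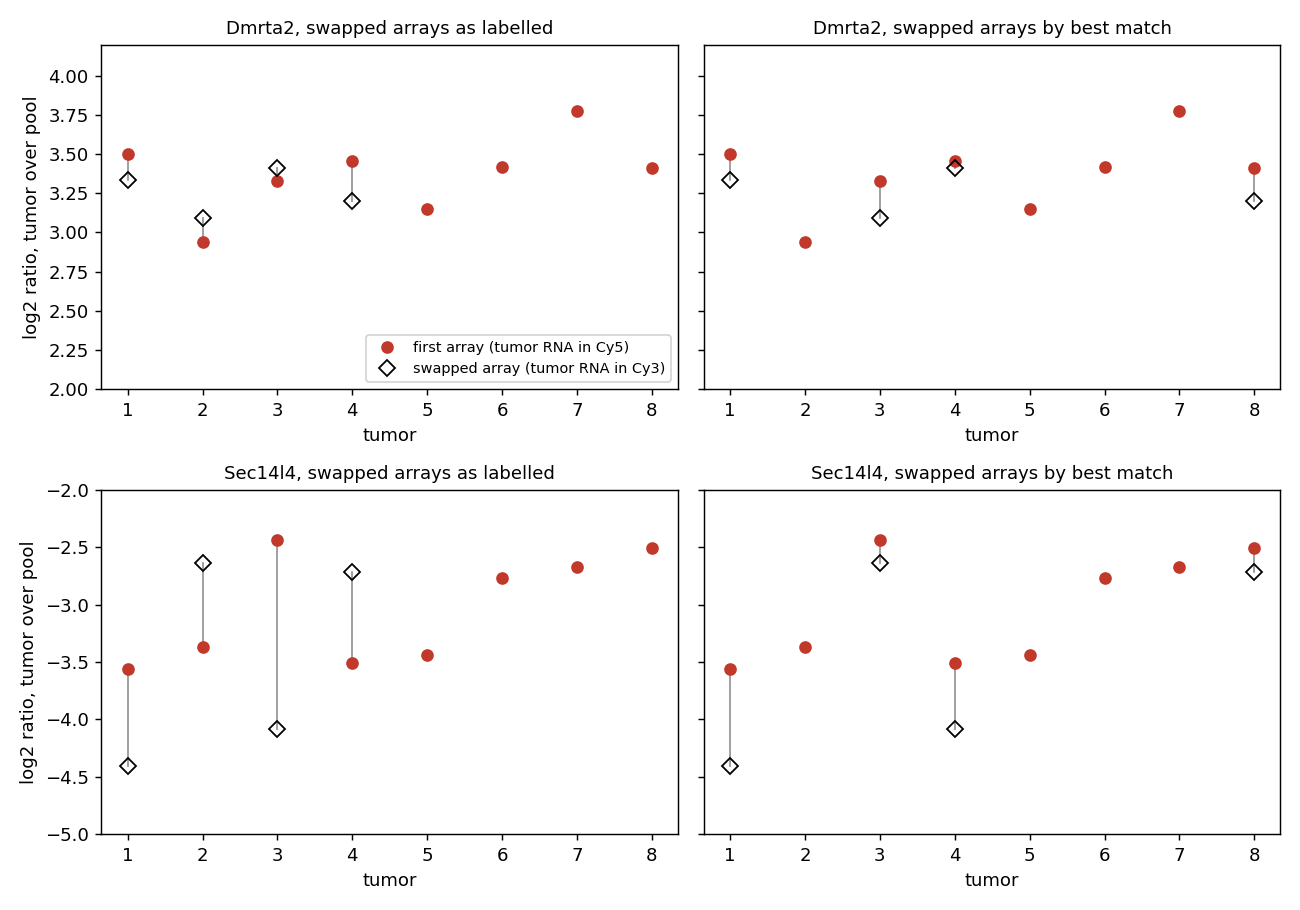
Log2 ratio of tumor over pool on each array for Dmrta2 (top) and Sec14l4 (bottom), by tumor, with first arrays as red circles, swapped arrays as open diamonds, and grey lines joining arrays placed on one tumor. Swapped arrays stand at their labelled tumor on the left and at the first array they correlate best with on the right, where the Sec14l4 pairs lie closer together.

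The value table that the authors deposited put Dmrta2 at log2 ratios of 3.90, 2.97, 3.19, 3.35, 3.40, 3.32, 3.90 and 3.42 on the first arrays, in tumor order, and at 3.26, 3.01, 3.24 and 3.06 on the swapped ones. Its values for Sec14l4 were -3.79, -3.72, -2.64, -3.34, -3.75, -2.37, -2.16 and -2.48 on the first arrays and -3.92, -2.76, -3.96 and -2.63 on the swapped ones. Tumors 1, 2, 4 and 5 were again below tumors 3, 6, 7 and 8 for Sec14l4 on the first arrays. Averaged by labelled tumor, these values gave 3.38 ± 0.28 for Dmrta2 and -3.02 ± 0.63 for Sec14l4 (SD, n = 8).

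Set beside the other genes whose average log2 ratio was 2 or more in size, Dmrta2 stood at the low end of spread. These 125 genes, 57 higher and 68 lower than the pool, had a median SD of 0.91. The higher gene next to Dmrta2 in spread, the unnamed transcript NAP046356-1, had an SD of 0.46 at a mean of 2.14, followed by Fabp3, a fatty acid binding protein, with 0.54 at 2.51. Sec14l4 ranked 10 of the 68 lower genes. Vsig2, a membrane protein of the immunoglobulin superfamily, had the lowest SD of the lower genes, 0.27 at a mean of -2.21. Bach2, a transcriptional repressor known from lymphocytes, had 0.28 at -2.10, and Tfap2b, an AP-2 transcription factor, had 0.31 at -3.65. Each of these 3 genes was represented by its brightest probe, and its other kept probes were nearer to the pool, at -0.04 for Vsig2, -0.25 for Bach2, and -1.20 and -1.21 for Tfap2b. Dmrta2 and Sec14l4 have no second probe against which their ratios could be read.

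The ranks of both genes moved with the processing, and that of Sec14l4 moved further. In the value table the SD of Dmrta2 ranked 1 of 132 genes and that of Sec14l4 26 of 132. With the scanner software's own log ratio the SDs were 0.40 and 0.70, ranking 5 and 52 of 345 genes. When the background model was fitted on all spots of an array, the SDs were 0.31 for Dmrta2 and 0.34 for Sec14l4, and the ranks 1 and 2 of 104. That fit was disturbed on the swapped array labelled tumor 1 and the first array of tumor 2 by spots whose signal lay far under their local background, down to -56620 scanner units. There the fitted mean of the remaining background in the green channel reached -921 and -285, against -18.4 and -19.6 once such spots were left out (20 and 5 on those arrays, both channels together). Without the swapped array labelled tumor 1, the SDs were 0.23 and 0.37, ranking 1 and 5 of 116 genes. Median centring in place of loess ranked Dmrta2 3 and Sec14l4 14 of 121 genes. On the 4 swapped arrays alone the ranks were 2 for Dmrta2 and 85 for Sec14l4 of 172, where the SDs were 0.14 and 0.92 and the median SD was 0.92. On slide 1, the first arrays of tumors 1 to 4, they were 10 and 37 of 157 genes, and on slide 2, the first arrays of tumors 5 to 8, 6 and 15 of 213.

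**Figure D3:**
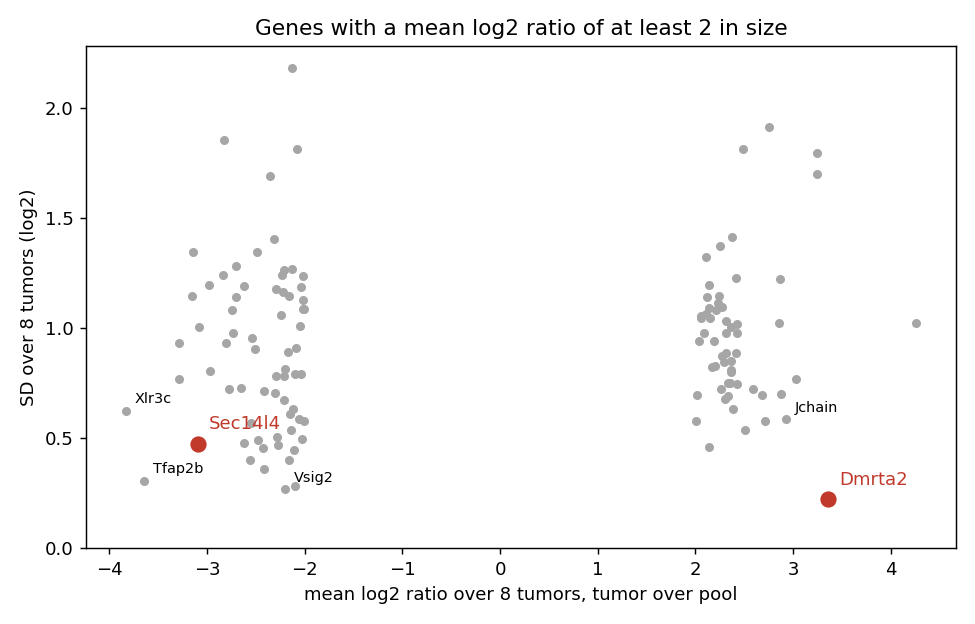
SD over the 8 tumors against the mean log2 ratio of tumor over pool, for the 125 genes averaging 2 or more in size (grey), with Dmrta2 and Sec14l4 in red and 4 other genes named. Dmrta2 is the lowest point at an SD of 0.22, and Sec14l4, at 0.47, has several lower genes beneath it.

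The genes whose 8 tumor values lay nearest to those of Dmrta2 were ranked by root-mean-square difference in log2 ratio among 18886 genes measured in all 8 tumors. Nearest was Jchain, the joining chain of polymeric immunoglobulins, at 0.64, with a mean of 2.93 ± 0.59 (SD, n = 8). Then came ENSMUST00000066275 at 0.68, Glycam1, a mucin-like glycoprotein of milk and of lymph node vessels, at 0.77, and the transcripts AF152371 at 0.83 and X75105 at 0.86. Nearest to Sec14l4 were Evc2, a ciliary protein of hedgehog signalling, at 0.73, the proline-rich protein gene Prpmp5 at 0.76, Tfap2b at 0.81, Tafa5, a secreted chemokine-like protein, at 0.82, and the galectin Lgals7 at 0.82. A second kept probe of Jchain gave 3.39 ± 0.91, one of ENSMUST00000066275 gave 1.80 ± 1.16 against 3.03 for the probe used, and one of Evc2 gave -0.11 ± 0.27 (SD, n = 8 each). All of these distances exceeded the SD of the gene they were measured from.

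Of all 20401 tested genes, 18.1% were called different from the pool (limma, Benjamini-Hochberg adjusted p under 0.05), 7.03% higher and 11.1% lower, and the median log2 ratio was -0.02. The other DM-domain genes did not share the ratio of Dmrta2. Of 9 listed, 4 were tested and 1 was called, lower: Dmrt3, which acts in spinal cord interneurons, at -0.72 ± 0.44 (SD, n = 8; limma adjusted p = 0.0118), lower in 7 of 8 tumors. Dmrt2, which acts in somite patterning, averaged -0.36 ± 0.86 (n = 8, limma adjusted p = 0.378). Dmrta1, of the same subfamily as Dmrta2, averaged -0.38 ± 0.83 (n = 7, limma adjusted p = 0.366), and Dmrtb1, which acts in male germ cells, -0.05 ± 0.17 (n = 8, limma adjusted p = 0.706). Tumor 2, the lowest for Dmrta2, was the highest for Dmrta1 at 1.28. The value of Dmrta1 depended on the processing. It was -0.68 in the value table, and -1.57 and called lower with the scanner software's ratio (limma adjusted p = 0.0472). None of the 4 tested genes was well above background in both channels on every array. Dmrt1, Dmrtc1a, Dmrtc1b and Dmrtc2 had probes that were too dim to be tested, and Dmrtc1c was matched to none.

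The SEC14-like genes other than Sec14l4 were closer to the pool. Of 4 listed, 3 were tested and 0 were called by limma at an adjusted p under 0.05. Sec14l2, known as supernatant protein factor of squalene epoxidation, averaged -0.00 ± 0.42 (SD, n = 8; limma adjusted p = 0.984). Sec14l3 averaged -0.10 ± 0.31 (n = 8, limma adjusted p = 0.578). Sec14l1 averaged -0.67 ± 1.08 (n = 8, limma adjusted p = 0.192), its other 2 kept probes gave -0.51 and -0.59, and tumor 6 stood apart at -3.20. The median of the 3 genes was -0.10, and a probe that picks up RNA of more than 1 of these related genes cannot be told from these values.

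Among 19 other genes with a CRAL-TRIO domain or a like fold, 16 were tested, 2 were called, both lower, and the median was -0.14. Nf1, the Ras GTPase-activating protein neurofibromin, averaged -1.82 ± 0.37 (SD, n = 8; limma adjusted p = 0.000112) and was lower in 8 of 8 tumors, while its other 3 kept probes gave -0.95, -0.81 and -1.14. Ttpa averaged -0.80 ± 0.53 (n = 8, limma adjusted p = 0.0145), also lower in 8 of 8, with a second probe at -0.71. On the swapped arrays alone Ttpa averaged 0.41. The combined SEC14-like and CRAL-TRIO lists had 2 of 19 tested genes called (10.5%), against the 18.1% of all genes.

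**Figure D4:**
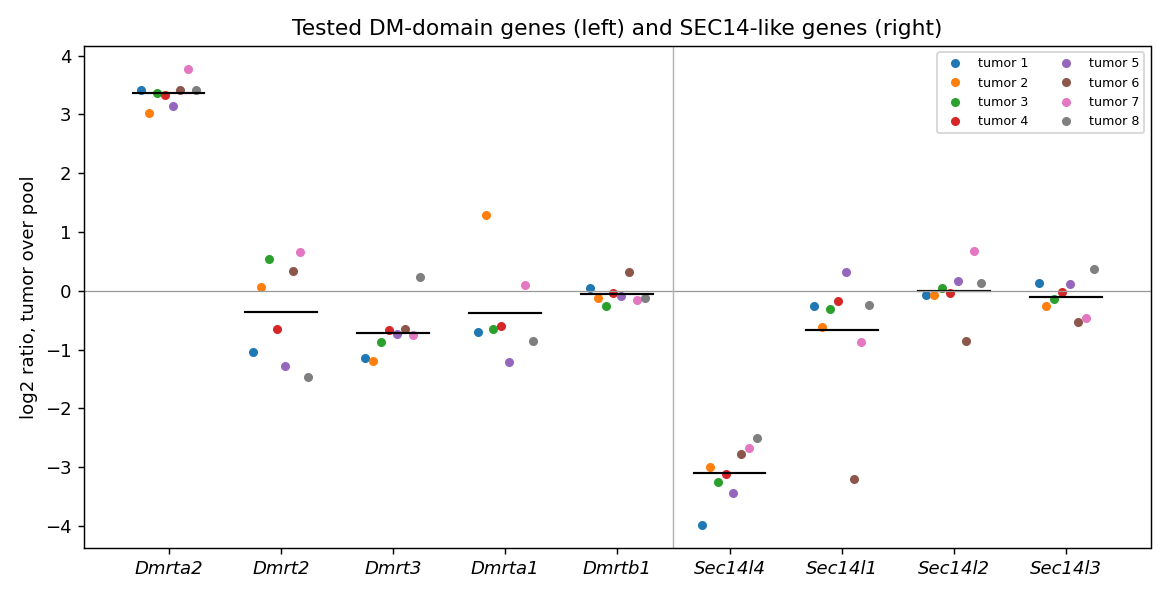
Log2 ratio of tumor over pool in each of the 8 tumors (points) with the mean (bar), for the tested DM-domain genes on the left and SEC14-like genes on the right. Dmrta2 and Sec14l4 stand clear of the zero line in every tumor, while most points of their relatives lie between -1.5 and 1.5, apart from Sec14l1 in tumor 6 at -3.20.

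Genes that work with Dmrta2 in the developing forebrain were mostly near the pool or too dim. Of 17 listed, 9 were tested and 1 was called, lower: Lhx2, a LIM-homeodomain factor of the cortex, at -0.56 ± 0.48 (SD, n = 8; limma adjusted p = 0.0407), a call that 11 of 23 alternative settings lost. The list's median was 0.05, and 11.1% of its tested genes were called, against 18.1% of all tested genes. Hes1, Gli3 and Pax6 lay as far from the pool as Lhx2 or nearly so, but were not called. They averaged -1.01 ± 1.62, 0.77 ± 1.22 and 0.56 ± 0.61 (SD, n = 8 each). Of 13 vitamin E and squalene pathway genes, 12 were tested and 1 was called, lower: Lss, lanosterol synthase, at -0.79 ± 0.63 (n = 8, limma adjusted p = 0.0273), which 8 of 24 settings lost and whose other probes gave -0.26 and -0.11. The median of that list was 0.04, and 8.33% of its tested genes were called, against the same 18.1%.

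The chromosomal neighbours of Dmrta2 did not share its ratio. Within 1 Mb of its probe (mm7, distances positive toward higher coordinates) 11 genes were tested, with a median log2 ratio of -0.23. Of these, 0 were called higher and 3 lower (27.3%), against 18.1% of all tested genes called in either direction. The nearest was Faf1, a ubiquitin-binding protein of Fas signalling, at -21.6 kb, whose 2 probes gave -0.19 ± 0.39 and -0.24 ± 0.41 (SD, n = 8 each). On the other side the nearest was Elavl4, a neuronal RNA-binding protein, 223 kb away at 0.09. The called genes were 9630013D21Rik at -0.99 ± 0.88 (limma adjusted p = 0.0358), Rnf11 at -0.46 ± 0.38 (limma adjusted p = 0.045) and Osbpl9 at -0.80 ± 0.54 (limma adjusted p = 0.0154), n = 8 each. The call of Rnf11 was lost in 16 of 24 alternative settings and that of 9630013D21Rik in 12 of 24. That of Osbpl9 was lost in 4 of 24, and its sign turned in 1 more, the swapped arrays alone (0.14).

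The neighbours of Sec14l4 include its relatives Sec14l3, 27.3 kb away, and Sec14l2, 49.3 kb away. Of 51 tested genes within 1 Mb, 5 were called (9.8%, against 18.1% of all tested genes), 1 higher and 4 lower. The median was -0.06. Closest on the lower side was Gal3st1, a sulfotransferase of glycolipid synthesis, at -48.9 kb, with -0.01 ± 0.30 (SD, n = 8). The gene called higher was the phosphatase Dusp18 at 1.05 ± 0.45 (n = 7, limma adjusted p = 0.00456), though its other 2 kept probes gave 0.29 and -0.02. AK038096, at -1.26 ± 0.74 (n = 8, limma adjusted p = 0.00743), was the lowest of the called neighbours. The other called genes were AK053107, Uqcr10, a subunit of respiratory complex III, and Ap1b1, a clathrin adaptor subunit, at -0.34, -0.52 and -0.65.

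**Figure D5:**
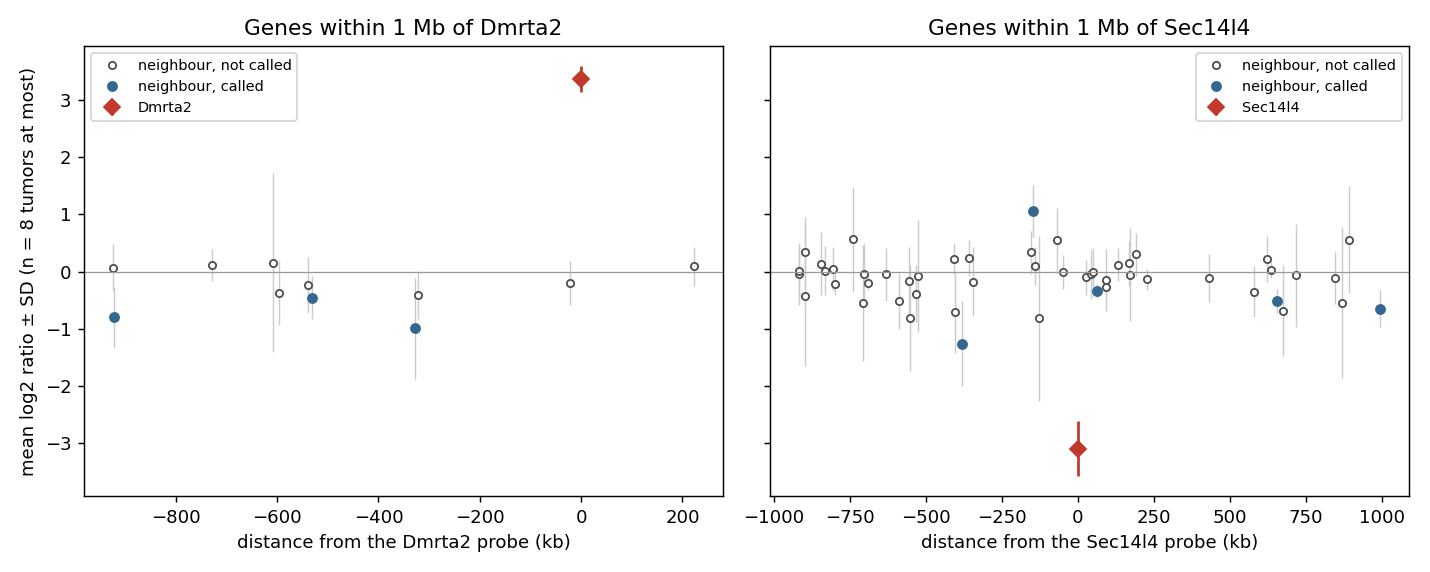
Mean log2 ratio of tumor over pool with SD over tumors (bars) against distance in kb from the Dmrta2 probe (left) and the Sec14l4 probe (right), for tested genes within 1 Mb, with called neighbours filled in blue and the gene itself in red. Dmrta2 at 3.36 and Sec14l4 at -3.09 lie beyond all of their neighbours, whose medians are -0.23 and -0.06.

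Markers of other cells were read beside these ratios. Of 7 epithelial markers tested, 4 (57.1%) were called higher, against 7.03% of all tested genes. These were Krt8 at 0.85 ± 0.56 (n = 8), Epcam at 0.74 ± 0.69 (n = 8), Krt5 at 1.33 ± 0.67 (n = 7) and Krt14 at 0.86 ± 0.63 (n = 8), with a list median of 0.85. Alternative settings lost the call of Epcam in 14 of 24, that of Krt14 in 7, that of Krt5 in 4 and that of Krt8 in 2. On the swapped arrays alone Krt8 and Epcam, called higher in the 8 tumors, and Krt18, not called there, were called lower. Of 10 neural markers 8 were tested and 4 were called (50%), against 18.1% of all tested genes. Among them were Tubb3, called higher at 0.51 ± 0.40, and Map2 and Mbp, called lower at -0.56 ± 0.33 and -0.40 ± 0.18 (SD, n = 8 each). The list median was -0.06. Alternative settings lost the call of Tubb3 in 10 of 24, that of Mbp in 5 and that of Map2 in 4, and turned the sign of Tubb3 and of Mbp in 1 each. Other kept probes of Map2 gave 0.11, -0.04 and -0.88, and those of Mbp -0.19 and -0.18. Of 6 hepatocyte markers 4 were tested and 0 were called, with a median of 0.11. Their part in the ratios of Dmrta2 and Sec14l4 was not tested.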

How the data were processed

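The files held one two-colour Agilent array each, quantified with Feature Extraction 9.5.3.1 on a design with mm7 probe coordinates, per the file headers. The mean foreground and median background intensity of each spot were deposited without normalization, per the file headers. Per the file headers, the deposited log10 ratio divides red by green after the software's own background and dye correction. Outlier, saturated and well-above-background spots carry deposited flags (other values, 0 or 1). A series value table from the authors is in log2 units, already turned to tumor over pool. Its columns correlated with the ratios used here at 0.973 to 0.995, and their medians ran between -0.0715 and 0.137. Its normalization and centring are not given in the sources used here.

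Here, limma 3.58.1 under R 4.3.3 (package data.table, version 1.17.8) was run on 43379 gene spots per array. The background step was normexp (offset 50), fitted without spots whose foreground was more than 50 below the background. Loess followed, with control spots at weight 0. Outlier spots were left out. Arrays of the same labelled tumor were averaged, giving 8 replicates. The SDs and p-values treat these as separate tumors, which holds only if the labelled numbers of the swapped arrays are right. Of 41174 probes, 30838 were well above background in either channel in at least 4 tumors. The brightest kept probe stood for each gene, and 20401 genes were tested. Names came from RefSeq of GRCm38.p6 by accession (22951 probes), symbol (6659) or older symbol (3109), and 8455 kept the file's name. Precision is limited by the number of arrays.

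Each gene's mean was tested against a log2 ratio of 0 with lmFit and eBayes, with Benjamini-Hochberg adjustment over all tested genes. The pool is 1 control sample, so the spread between control tumors is left out. The labels do not say that the tumors came from separate animals, so p-values measure only the spread between these samples. There were 3 slides, and the 4 swapped arrays formed 1 of them, so their slide cannot be told apart from their dye orientation.

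The members and gene lists were chosen with earlier results of these data known. Named were the members, the tested genes of both families and the epithelial markers. Of each other list the called genes with the largest mean in size were taken, and of each neighbourhood at most 5 called genes, nearest first. The nearest neighbours, the 5 genes most like each member and the 5 least variable genes in each direction were named too. A called marker gene that this rule takes is not reported here. Xlr3c was labelled in 1 plot after its values were seen. Alternatives were other background, scaling, ratio, filter, slide and dye settings, and leaving out each tumor.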

Additional observations from a re-analysis of the deposited data

Results flagged for a closer look

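Of 50 named genes, 3 had 1 tumor farther from the others than Dixon's 95% limit for 8 values allows, and chance alone flags about 1 in 20 groups. Neither Dmrta2 nor Sec14l4 was among them. Sec14l1 had a log2 ratio of -3.20 in tumor 6, where the nearest tumor was at -0.88 and the highest at 0.31. Dmrt3 had 0.23 in tumor 8, where the nearest was at -0.65 and the lowest at -1.19. Rnf11, a neighbour of Dmrta2, had 0.38 in tumor 1, where the nearest was at -0.27 and the lowest at -0.82.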

How the results depend on the processing

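The mean log2 ratio of Sec14l4 moved by less than its SD in all 24 alternatives and ran between -3.46 and -2.85. That of Dmrta2 ran between 3.26 and 3.81, and it moved by more than its SD with median centring (3.60) and with the scanner software's ratio (3.81). Leaving out each tumor gave 3.30 to 3.41 for Dmrta2 and -3.18 to -2.97 for Sec14l4. Median centring shifted the median of all genes to 0.16 and put 2532 of 3567 called genes higher, against 1435 of 3696 in the main setting. Called genes numbered 1585 on slide 1 and 283 on slide 2 alone, and leaving out each tumor gave 2265 (without tumor 4) to 4784 (without tumor 6). Called Dmrt genes numbered 2 with the scanner ratio and 0 on either slide alone, where 4 were tested. None could be tested where both channels had to be measured on every array. They numbered 1 to 2 when a tumor was left out (2 without tumor 2). Called SEC14-like and CRAL-TRIO genes numbered 1 on slide 2 alone and 2 to 4 with a tumor left out (4 without tumor 6). Near Dmrta2 the count was 0 with median centring, on slide 2 and with a dye term and best-matching tumors as block, and 1 with the scanner ratio, the value table, swapped arrays only, slide 1 and best-matching arrays averaged. It was 1 to 2 with a tumor left out. Near Sec14l4 it was 3 with both channels measured, 1 on slide 2, 10 with a dye term and labelled tumors as block, and 4 to 11 with a tumor left out (11 without tumor 6). Among the called genes named, signs turned with median centring for Mbp (0.016) and Uqcr10 (0.25), and on the swapped arrays alone for Epcam (-0.68), Krt8 (-0.66), Ttpa (0.41), Tubb3 (-0.13) and Osbpl9 (0.14). Krt18, not called in the main setting, was called lower there (-1.67). Dmrt2, Dmrta1, Sec14l2, Sec14l3, Shc1 and, in both dye-term fits, Krt18 changed sign in 1 or more settings without being called. The cause was not tested. A normexp fit on all spots, averaging by best match, and leaving out the swapped array labelled tumor 1 were chosen after seeing the data. No paired analysis was possible because there was only 1 group of tumors, set against 1 pool. Signal limits the ratio of Sec14l4 on the swapped array labelled tumor 1, where its tumor signal was 124 over a background of 55.5.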
